A study of Mus musculus with 7 samples.

Results

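The genes described here are 9 secreted proteins of the transforming growth factor beta (TGF-beta) and bone morphogenetic protein (BMP) system in the mouse heart: the ligands Tgfb1, Tgfb2, Inhbb, Mstn, Bmp2, Bmp7 and Bmp10, the latent TGF-beta binding protein Ltbp4 and the BMP antagonist Grem1. They were found by their symbols among the 20343 genes of the analysed part of the deposited count table, and all 9 were present. RNA sequencing was done on polyadenylated RNA from the apical myocardium of 7 NSG-DR1 mice (labelled NSG-DRB1*0101), an immunodeficient strain without mature lymphocytes of its own that carries a human HLA-DR1 transgene. Human CD4+ T cells had been given to 3 mice, called transferred here, whose hearts were taken 6 weeks later, and 4 mice without any treatment served as controls. The controls therefore differed from the transferred mice in receiving no cells at all, and the labels give no age or sex. The labels give each heart an identifier of its own, and the hearts are numbered here only to name them.

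TGF-beta family ligands are made as precursors, cut by furin-type proteases and secreted as dimers that bring together type I and type II serine/threonine kinase receptors. The TGF-beta and activin branch signals mainly through SMAD2 and SMAD3, and the BMP branch mainly through SMAD1, SMAD5 and SMAD9. TGF-beta stays inactive in a latent complex until it is released, and BMPs are held back by secreted antagonists. In the heart the family is best known for fibroblast activation and matrix deposition, for valve and chamber development, and for restraint of muscle growth by myostatin.

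The part of the genome analysed here was chromosomes 1 to 7 with the beginning of chromosome 8, and column totals over this part ranged from 16402194 to 25190580 counts. These totals are not the depth of the libraries. Ventricular cardiomyocyte markers were abundant in every heart, with 5 of 11 listed genes in the table (Ttn, Tnnt2, Tnni3, Myl2 and Mybpc3) and a summed level of 65848.5 to 71366 counts-per-million (CPM) in control hearts and 66644 to 75883 CPM in transferred hearts. Macrophage markers, 10 of 13 listed genes, summed to 464 to 696 CPM in control hearts and 836 to 1223 CPM in transferred hearts, with no listed gene at 0 in all hearts. Neutrophil markers, 5 of 7 listed genes, summed to 8.87 to 12.0 CPM in control hearts and 12.2 to 259 CPM in transferred hearts, with the highest value in transferred heart 2. In bulk tissue, fewer cells of a type and less RNA per cell cannot be told apart.

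No member of the group passed the test between transferred and control hearts. Of the 9 genes, 7 passed the filter on low counts, and 0 of these 7 were called by the quasi-likelihood test of edgeR (adjusted p-value under 0.05), which called 0.235% of the 7667 tested genes. Bmp2 and Mstn, 2 of 7, were under 0.05 before adjustment, beside 12.4% of all tested genes. Both were higher in transferred hearts, as 7.17% of all tested genes were by the same criterion. DESeq2 also called 0 of 7, with 2 of 7 under 0.05 before adjustment, where it called 3.26% of all tested genes and had 12.9% under 0.05 before adjustment. limma-voom called 0 of 7 and 0% of all tested genes, with 2 of 7 and 11.8% under 0.05 before adjustment. The median log2 fold change of the 7 genes was -0.029, beside -0.0020 for all tested genes, with 3 genes above 0 and 4 below it.

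**Figure D1:**
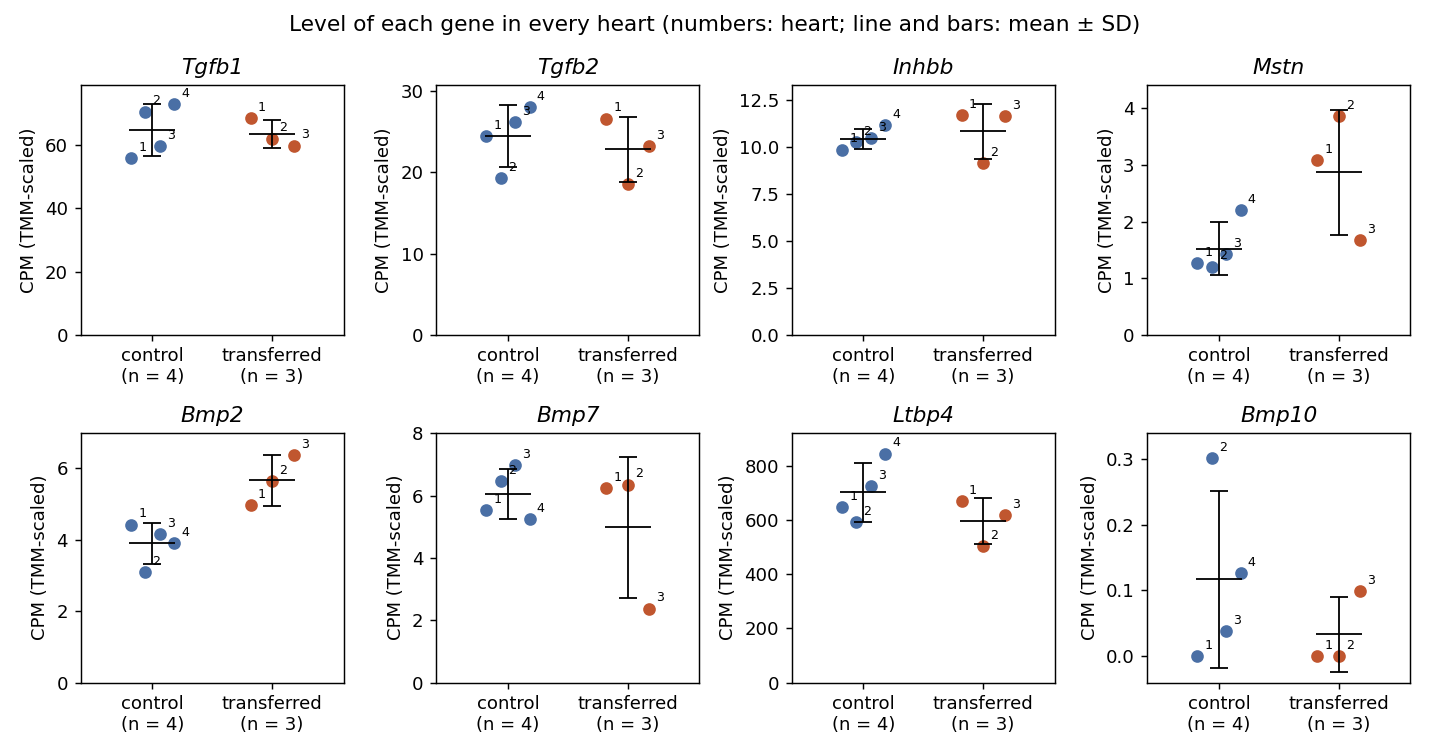
Level of 8 of the 9 genes in every heart, in TMM-scaled CPM on linear axes. Points are hearts with their number, and the line and bars are the mean ± SD of 4 control and 3 transferred hearts. Bmp2 is the gene whose groups do not overlap, Mstn is high in transferred hearts 1 and 2 alone, and Bmp7 is low in transferred heart 3. Grem1 had 0 counts in all hearts and is not drawn.

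Levels were compared between genes as CPM per kilobase (kb) of combined exon. Ltbp4 came first with 108 ± 17.6 (SD, n = 7), followed by Tgfb1 with 29.5 ± 2.94 (SD, n = 7). The range of Ltbp4 over the hearts, 82.8 to 139, lay above that of Tgfb1, 25.7 to 33.4. Tgfb2 and Inhbb followed with 2.66 ± 0.409 and 2.49 ± 0.222 (SD, n = 7), and their ranges overlapped. Bmp7, Bmp2 and Mstn stood at 1.52 ± 0.419, 1.30 ± 0.310 and 0.778 ± 0.376 (SD, n = 7), and each overlapped its neighbour in this order. Every tested gene lay above Bmp10, which averaged 0.0609 CPM per kb, and Grem1 was at 0.

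**Figure D2:**
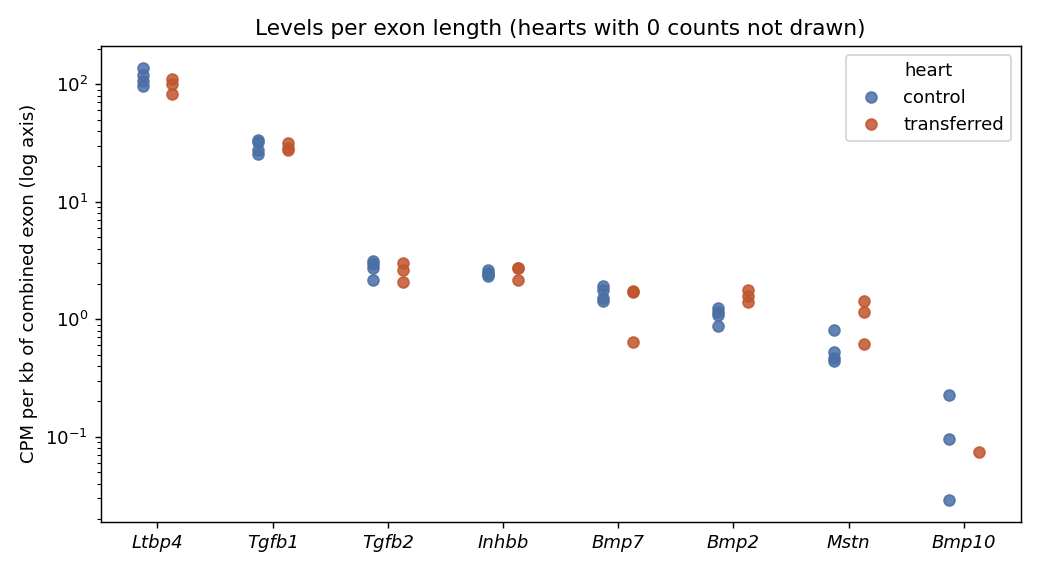
Level per exon length of 8 genes in every heart, in CPM per kb on a log axis, with control and transferred hearts side by side and hearts with 0 counts left out. Ltbp4 and Tgfb1 stand apart from the other ligands, and Bmp10 lies below all of them.

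The stretches of 250 bases before the annotated start are shown for 3 genes at different places in that order: the well expressed Tgfb1, the undetected Grem1, and Mstn. Tgfb1 and Grem1 are alike in composition, and Mstn differs from them. They are RefSeq sequences of the build GRCm38.p6, written 5′ to 3′ on the strand of the gene, and capitals mark each CG dinucleotide and the motif TATAAA. RefSeq windows were found for 7 of the 9 genes, all but Bmp2 and Bmp7.
Tgfb1, chr7:25686752-25687001, plus strand: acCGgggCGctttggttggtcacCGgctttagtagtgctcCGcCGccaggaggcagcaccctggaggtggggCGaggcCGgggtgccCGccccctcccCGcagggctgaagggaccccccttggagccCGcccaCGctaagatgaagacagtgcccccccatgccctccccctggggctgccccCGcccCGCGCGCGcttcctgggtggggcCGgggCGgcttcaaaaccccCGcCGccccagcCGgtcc
Grem1, chr2:113758649-113758898, minus strand: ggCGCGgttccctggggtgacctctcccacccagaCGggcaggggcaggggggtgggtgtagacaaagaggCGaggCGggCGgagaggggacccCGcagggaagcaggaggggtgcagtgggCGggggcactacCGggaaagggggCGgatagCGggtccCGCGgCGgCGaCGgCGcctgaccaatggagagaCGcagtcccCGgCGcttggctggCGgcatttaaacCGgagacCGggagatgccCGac
Mstn, chr1:53061390-53061639, plus strand: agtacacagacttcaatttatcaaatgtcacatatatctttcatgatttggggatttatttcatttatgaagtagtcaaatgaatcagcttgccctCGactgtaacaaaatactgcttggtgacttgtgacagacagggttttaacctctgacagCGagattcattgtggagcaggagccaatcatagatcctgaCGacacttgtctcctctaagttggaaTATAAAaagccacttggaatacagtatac
Tgfb1 held 21 CG dinucleotides and Grem1 held 24, while Mstn held 3. Among 32851 such windows of the genome, 85.2% had at most as many as Tgfb1, 89.3% at most as many as Grem1 and 37.8% at most as many as Mstn. The window of Bmp10 also held 3. A CG-rich start was thus found both at a gene with a high level and at the gene with 0 counts. TATAAA, searched on both strands, occurred in the windows of Mstn and Tgfb2 and in 12.4% of all windows. CAGAC, the SMAD box, searched on both strands as CAGAC or GTCTG, occurred in the windows of Mstn, Tgfb2 and Grem1 and in 42.2% of all windows. A match is a string of letters and not a measured binding site.

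Tgfb1 (chromosome 7, 25687002 to 25705077, GRCm38 throughout) encodes the most widely studied TGF-beta, which is released by platelets, macrophages and fibroblasts among others. It stood at 55.8, 70.5, 59.7 and 72.8 CPM in control hearts 1 to 4 and at 68.4, 61.9 and 59.8 CPM in transferred hearts 1 to 3. All 3 transferred hearts lay within the control range. The means were 64.7 ± 8.21 CPM (SD, n = 4) and 63.4 ± 4.47 CPM (SD, n = 3). Its log2 fold change was -0.029, with a 95% interval of -0.27 to 0.21 (edgeR adjusted p = 0.942), and the sign was not fixed, being 0.015 without control heart 2, 0.031 without control heart 4 and 0.012 without transferred heart 3. The group means of Tgfb1 differed by less than the SD of either group. The summed macrophage markers given above did not overlap between the groups, and their part in the Tgfb1 level was not tested.

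Tgfb2 (chromosome 1, 186622787 to 186709697), a TGF-beta isoform needed for heart and valve development, was measured at 24.5, 19.2, 26.1 and 28.0 CPM in control hearts and at 26.6, 18.6 and 23.2 CPM in transferred hearts. The groups overlapped, with control heart 2 and transferred heart 2 the lowest of their groups. Its log2 fold change was -0.10, with a 95% interval of -0.46 to 0.25 (edgeR adjusted p = 0.846), and without transferred heart 2 it was 0.028. Per exon length Tgfb1 exceeded Tgfb2 by 9.35, 15.0, 9.35 and 10.6 times in control hearts and by 10.5, 13.7 and 10.5 times in transferred hearts. The log2 ratio differed by 0.08 between the groups (exact two-sided permutation p = 0.629, also 0.629 after Benjamini-Hochberg adjustment over 2 ratios). Without transferred heart 2 the difference was -0.045. With 35 splits of the hearts, the smallest p-value possible was 0.0286.

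Ltbp4 (chromosome 7, 27305140 to 27339720) binds the latent TGF-beta1 complex to the matrix and takes part in elastic fibre assembly. Its level was 648, 594, 725 and 846 CPM in control hearts and 670.5, 506 and 618 CPM in transferred hearts. Transferred heart 2 had the lowest value of all 7 and control heart 4 the highest, and the other transferred hearts lay within the control range. A log2 fold change of -0.23 was estimated, with SE 0.14 and a 95% interval of -0.54 to 0.07 (edgeR adjusted p = 0.545). It was -0.13 without transferred heart 2 and also -0.13 without control heart 4. Fibroblast markers (Pdgfra, Col1a2, Col3a1, Dpt and Gsn, 5 of 10 listed genes) summed to 4801 to 6419 CPM in control hearts and 4385 to 7057 CPM in transferred hearts, with transferred heart 2 the lowest here too. Most of this sum was Gsn (3037 to 5296 CPM over the 7 hearts). Gsn and Col1a2 were lowest in transferred heart 2, Col3a1 was lowest in transferred heart 3, and Pdgfra and Dpt in transferred heart 2 lay within the control range. The part of the fibroblast markers in the Ltbp4 level was not tested. Ltbp4 exceeded Tgfb1 per exon length by 4.13, 3.003, 4.33 and 4.14 times in control hearts and by 3.49, 2.91 and 3.68 times in transferred hearts. The difference in the log2 ratio was -0.21 (exact two-sided permutation p = 0.314, 0.629 after adjustment over 2 ratios), beside an SD of the control hearts of 0.24. Control heart 2 had the lowest control ratio, the only one inside the transferred range. Without it the groups were apart, so the p-value had to be small: the difference was -0.33 (exact two-sided permutation p = 0.1, the smallest that 3 against 3 allows). Leaving out any other heart gave exact two-sided permutation p-values of 0.333 to 0.6.

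Inhbb (chromosome 1, 119415463 to 119422248) encodes the beta B subunit of activins and inhibins. It had the narrowest spread between hearts, with 9.87, 10.3, 10.5 and 11.2 CPM in control hearts and 11.7, 9.17 and 11.7 CPM in transferred hearts. Transferred heart 2 lay below every control heart and the other transferred hearts above every control heart. Inhbb differed by a log2 fold change of 0.054, with a 95% interval of -0.26 to 0.36 (edgeR adjusted p = 0.913). It was -0.0036 without transferred heart 1 and -0.0013 without transferred heart 3.

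Mstn (chromosome 1, 53061640 to 53068079) encodes myostatin, the activin receptor ligand that limits skeletal muscle mass and is also made at low level by cardiomyocytes. It was counted 26, 28, 37 and 35 times in control hearts and 61, 82 and 34 times in transferred hearts, which gave 1.26, 1.20, 1.42 and 2.21 CPM against 3.09, 3.86 and 1.68 CPM. Transferred hearts 1 and 2 lay above every control heart, while transferred heart 3 lay between control hearts 3 and 4. The means were 1.52 ± 0.465 CPM (SD, n = 4) and 2.88 ± 1.10 CPM (SD, n = 3), and the difference in mean log2 CPM had an exact two-sided permutation p of 0.0857. On the log2 scale the fold change was 0.93, with SE 0.34 and a 95% interval of 0.16 to 1.70 (edgeR unadjusted p = 0.0228, adjusted p = 0.307). It was 0.66 without transferred heart 2 and 1.20 without transferred heart 3, with adjusted p-values of 0.667 and 0.119.

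Counting error alone was wide for so few counts. The exact 95% Poisson interval of the count was 2.36 to 3.97 CPM in transferred heart 1 and 3.07 to 4.79 CPM in transferred heart 2, against 1.54 to 3.07 CPM in control heart 4, the highest control. Such intervals hold the error of counting alone and leave out the variation between hearts. Without molecular identifiers several reads may stem from the same molecule, so the intervals may also be too narrow for the counting error. Skeletal muscle markers, 7 of 12 listed genes, summed to 23.5 to 32.1 CPM in control hearts and to 24.98 to 49.2 CPM in transferred hearts. Of the hearts with high Mstn, transferred heart 1 had the highest of these sums, 49.2 CPM, of which 43.9 CPM was Casq1, and transferred heart 2 had 24.98 CPM. Of the 6 tested markers of this list, Casq1 alone was above 0 by sign and 5 were below it, with a median log2 fold change of -0.50 and 0 called. Myod1, the defining myogenic factor, was counted 3 times in transferred heart 2, 1 time in control heart 1 and 0 times in the other 5. The part of skeletal muscle in the Mstn level was not tested.

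Bmp2 (chromosome 2, 133552159 to 133562896), a BMP made by endothelial and stromal cells that acts through BMP receptors on SMAD1, SMAD5 and SMAD9, was the only tested member whose groups did not overlap. It was at 4.43, 3.10, 4.15 and 3.91 CPM in control hearts and at 4.96, 5.64 and 6.37 CPM in transferred hearts. Each transferred heart was above each control heart, as in 5.99% of all tested genes, and the groups were apart in either direction in 11.2%. The means were 3.90 ± 0.571 CPM (SD, n = 4) and 5.66 ± 0.705 CPM (SD, n = 3), a fold of 1.45. The exact two-sided permutation p of the difference in mean log2 CPM was 0.0286, the smallest this design can give. It is not adjusted over genes and restates the lack of overlap, so it is not further evidence. The edgeR estimate of its log2 fold change was 0.54, with SE 0.19 and a 95% interval of 0.11 to 0.97 (edgeR unadjusted p = 0.0198, adjusted p = 0.295), so that it did not pass over all genes. In 18 alternative fits it lay between 0.44 and 0.70, with an adjusted p-value under 0.05 in 0 of them and between 0.217 and 0.600. Before adjustment the p-value was under 0.05 in 16 of them. It was 0.0587 without control heart 2 and 0.0710 without transferred heart 3 (edgeR, unadjusted).

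**Figure D3:**
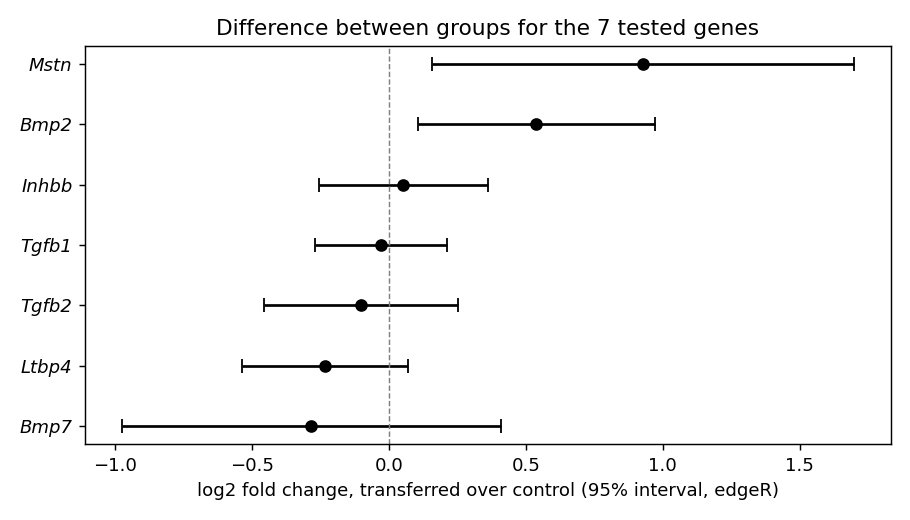
Log2 fold change of the 7 tested genes, transferred over control, with the 95% interval of the edgeR quasi-likelihood fit before adjustment over genes. The intervals of Mstn (0.16 to 1.70) and Bmp2 (0.11 to 0.97) lie above 0 and those of the other 5 genes include 0.

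Summed endothelial markers, 8 of 11 listed genes, ranged from 7018 to 7859 CPM in control hearts and from 7461 to 8731 CPM in transferred hearts, and overlapped. Most of this sum was Cd36 (4479 to 5663 CPM over the 7 hearts) and Fabp4 (1046 to 1467 CPM), which handle fatty acids. Among the markers Vwf, which encodes von Willebrand factor, was at 101, 94.0, 90.9 and 138 CPM in control hearts and at 177, 381 and 159 CPM in transferred hearts, also without overlap (log2 fold change 1.17, edgeR adjusted p = 0.200). Tie1, an endothelial receptor kinase of the same list, was without overlap in the opposite direction, at 249, 226, 221 and 251 CPM in control hearts and at 184, 201 and 202 CPM in transferred hearts (log2 fold change -0.28, edgeR adjusted p = 0.185). By sign, 6 of the 8 endothelial markers were higher and 2 lower, and 0 were called. Vwf and Tie1 were singled out after their values were seen. The macrophage sums given above also separated the groups as Bmp2 did. The part of these markers in the Bmp2 level was not tested.

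Bmp7 (chromosome 2, 172868012 to 172940321), a BMP known for opposing TGF-beta in experimental fibrosis, was at 5.54, 6.46, 6.99 and 5.24 CPM in control hearts and at 6.23, 6.35 and 2.37 CPM in transferred hearts. Transferred hearts 1 and 2 lay within the control range, and transferred heart 3 was the lowest of all 7. Bmp7 had an estimated log2 difference of -0.28, with SE 0.31 and a 95% interval of -0.98 to 0.41 (edgeR adjusted p = 0.779). Without transferred heart 3 it was 0.051, so the direction rested on that heart. Mesothelial markers, 4 of 7 listed genes, summed to 14.1 to 42.2 CPM in control hearts and 22.5 to 30.7 CPM in transferred hearts. In transferred heart 3, Wt1 made up 21.1 CPM of the sum, with Upk3b and Lrrn4 at 0.692 CPM each and Bnc1 at 0. Control heart 2, where Bmp7 was at 6.46 CPM, was also low in 3 of these genes, with Upk3b at 0.129 CPM and Lrrn4 and Bnc1 at 0. Their part in the Bmp7 level was not tested.

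Bmp10 (chromosome 6, 87428994 to 87434512) encodes a BMP that is made in the adult heart mainly by atrial cardiomyocytes and circulates as a ligand of endothelial ALK1. It was barely detected in the apical tissue, with 0, 7, 1 and 2 counts in control hearts and 0, 0 and 2 counts in transferred hearts, and was not tested. The 10 control counts correspond to 0.117 CPM, with an exact 95% Poisson interval of 0.0560 to 0.215 CPM, and the 2 transferred counts to 0.0327 CPM, with an interval of 0.00395 to 0.118 CPM. These intervals pool the counts of a group and leave out the variation between hearts, and 7 of the 10 control counts came from control heart 2. They overlap, which is not a test, and no difference between the groups was tested. Atrial cardiomyocyte markers, 6 of 9 listed genes, summed to 2701 to 4486 CPM in control hearts and 1577 to 4706 CPM in transferred hearts, most of it Nppa, which the ventricle also expresses.

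Grem1 (chromosome 2, 113748675 to 113758648) encodes gremlin 1, a secreted antagonist of BMP2, BMP4 and BMP7. It had 0 counts in all 7 hearts. Per heart, 3 counts correspond to between 0.115 and 0.189 CPM, and over all hearts to 0.0204 CPM, which is the level that a count of 0 allows. A ratio of Grem1 to Bmp2 was therefore not computed.

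The animals' identifiers have 2 forms, with letters for the hearts numbered 1 in both groups and without them for the other 5. The labels do not say what the form stands for. In the group without letters (3 control and 2 transferred hearts), mean log2 CPM differed by 0.70 for Bmp2 and 0.70 for Mstn. Between the 2 hearts with letters the differences were 0.17 and 1.27, each from 1 heart a group. The other 5 tested genes had opposite signs in the 2 forms, among them Bmp7 with -0.67 and 0.17 and Ltbp4 with -0.35 and 0.050. With the form as a covariate, 0 of 7 genes passed, with 2 under 0.05 before adjustment, again Bmp2 (log2 fold change 0.54) and Mstn (0.94).

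The genes most like each member were those with the smallest mean absolute difference of centred log2 CPM over the 7 hearts, among tested genes with a mean of at least 1 CPM. For Bmp2 they were Fgf2 and B3galnt1, at a distance of 0.10 each, where Bmp2 itself varied about its mean by 0.27 on average. For Mstn, Cd84 was among them (distance 0.16, own variation 0.54), and for Bmp7 they were Pdpn and Ttpa (0.15 each, own variation 0.34). For Tgfb1 they were Rrm1 and Ppp1r13l, for Tgfb2 Antxr1 and Ttc28, for Ltbp4 Dchs1 and Ctu1, and for Inhbb Vps18 and Hmces, with distances between 0.026 and 0.080. All 7 points share their libraries with both genes, and these are descriptions without a test.

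The rest of the pathway was read from 7 lists by role, which held 138 genes. Of these 60 were in the analysed part of the table and 49 were tested. None of the 49 passed the edgeR test (adjusted p-value under 0.05), and 5 were under 0.05 before adjustment, which is 10.2% beside 12.4% of all tested genes. DESeq2 called 1 of the 49, Fmod, which is 2.04% beside 3.26% of all tested genes. limma-voom called 0 of the 49, with 4 under 0.05 before adjustment, and 0 of all tested genes. By sign, 23 were higher and 26 lower in transferred hearts, with a median log2 fold change of -0.027. The groups did not overlap in 3 of 49, or 6.12%, beside 11.2% of all tested genes.

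**Figure D4:**
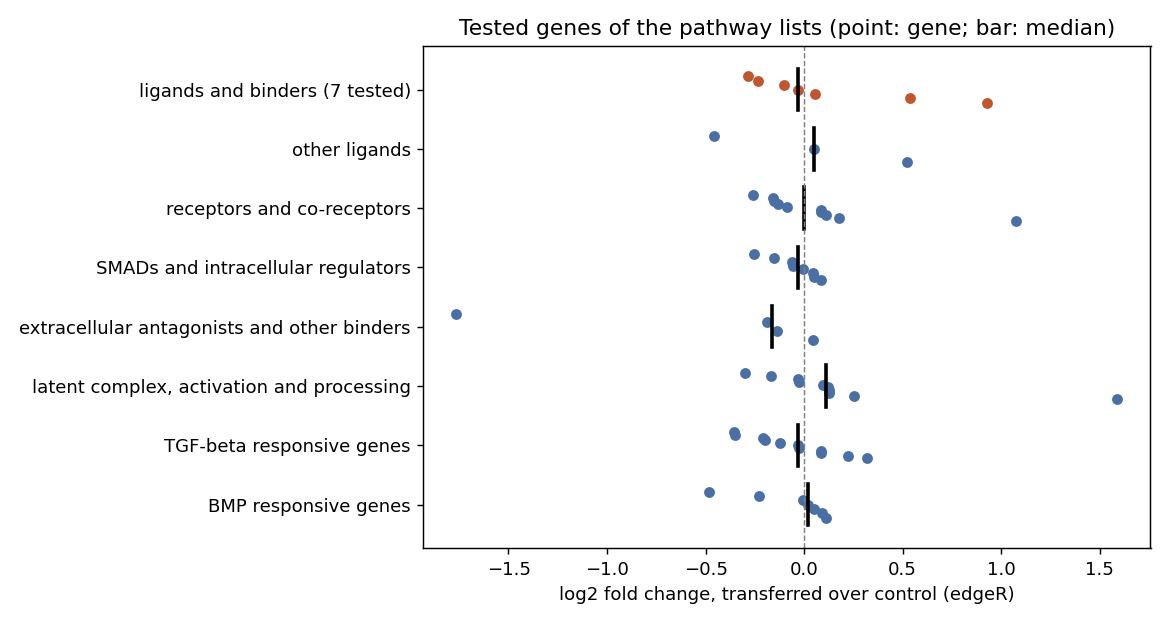
Log2 fold change, transferred over control, of the tested ligands and binders and of the tested genes of 7 pathway lists. Points are genes and bars are medians, which lie between -0.16 and 0.11. Fmod (-1.76), Mmp9 (1.59) and Bmpr1b (1.08) lie farthest from 0.

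Among the other ligands, 3 of 9 in the table were tested, and 2 were above 0. Lefty1, a secreted inhibitor of Nodal signalling, was at 2.63, 2.24, 3.22 and 2.97 CPM in control hearts and at 3.80, 3.48 and 4.64 CPM in transferred hearts, without overlap (log2 fold change 0.52, edgeR adjusted p = 0.370). Gdf6, a BMP ligand of joint and eye development, and Inha, the inhibin alpha subunit, differed by -0.46 and 0.053.

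Of the receptors and co-receptors, 10 of 11 in the table were tested, 5 on each side of 0, with a median of -0.00095. Tgfbr1, the TGF-beta type I receptor, differed by 0.18 on the log2 scale, SE 0.092 (edgeR adjusted p = 0.492). Acvr2a, the activin type II receptor that also binds myostatin, differed by -0.13, SE 0.094. Bmpr1b, a BMP type I receptor, lay between 0.0973 and 1.42 CPM in all hearts, and its log2 fold change, 1.08, had an SE of 0.70.

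Of the SMADs and intracellular regulators, all 8 in the table were tested, 3 above and 5 below 0. Zfyve9, the SMAD anchor for receptor activation, was at 123, 112, 89.6 and 114 CPM in control hearts and at 100.1, 85.4 and 89.9 CPM in transferred hearts. The groups overlapped through control heart 3, and the log2 fold change was -0.26 (edgeR adjusted p = 0.390). Smurf1, a ubiquitin ligase for SMADs and receptors, had -0.15, and Fkbp1a, which holds type I receptors inactive, had -0.060.

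Of the antagonists and other binders, 4 of 7 in the table were tested, 1 above and 3 below 0. Fmod encodes fibromodulin, a collagen-binding proteoglycan that also binds TGF-beta, and had the lowest value of the 49 genes. It was at 11.3, 3.23, 5.95 and 8.52 CPM in control hearts and at 4.00, 1.55 and 0.840 CPM in transferred hearts. Transferred heart 1 lay above control heart 2, and the log2 fold change was -1.76, SE 0.57 (edgeR unadjusted p = 0.0139, adjusted p = 0.267). In DESeq2 its log2 fold change was -1.77, SE 0.50, with an adjusted p of 0.0200. Htra1, a secreted protease, and Kcp, a chordin-like modulator of BMPs, had -0.14 and -0.19.

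Of the genes for the latent complex, its activation and ligand processing, all 10 in the table were tested, 6 above and 4 below 0. Mmp9, a gelatinase that can release TGF-beta, was at 1.46, 0.990, 1.27 and 1.58 CPM in control hearts and at 1.01, 9.03 and 1.83 CPM in transferred hearts. Its high value was in transferred heart 2, which also had the highest neutrophil marker sum, a list that holds Mmp9, and the part of neutrophils was not tested (log2 fold change 1.59, edgeR adjusted p = 0.369). Lrrc32, which presents latent TGF-beta on the cell surface, had 0.25, and Furin, which cuts the precursors, had -0.17.

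Responsive genes of both branches gave no gene past the threshold of edgeR, DESeq2 or limma-voom. Of the TGF-beta responsive genes, all 11 in the table were tested, 4 above and 7 below 0, with a median of -0.032. Fn1 (fibronectin) and Nox4 (an NADPH oxidase) had log2 fold changes of 0.32 and -0.36, with edgeR adjusted p-values of 0.453 and 0.537. Nox4 was at 4.62, 4.09, 5.03 and 4.42 CPM in control hearts and at 4.05, 3.81 and 2.77 CPM in transferred hearts, without overlap. Of the BMP responsive genes, 7 of 8 in the table were tested, 4 above and 3 below 0, with a median of 0.022. Heyl, a transcriptional repressor that responds to Notch as well as BMP, was at 97.9, 99.8, 96.5 and 103 CPM in control hearts and at 81.9, 51.3 and 80.4 CPM in transferred hearts. Every transferred heart was below every control heart, and the log2 fold change was -0.48, SE 0.15 (edgeR unadjusted p = 0.00821, adjusted p = 0.215). Eng, the endothelial co-receptor, and Hey1, a relative of Heyl, had 0.11 and -0.23.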

How the data were processed

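The authors deposited an unnormalized table of estimated counts for each gene. Per the submitters' processing notes, bcl2fastq 2.20.0.422, cutadapt 2.5, STAR 2.7.2b, featureCounts 1.6.4 and DESeq2 1.22.2 were used with the build GRCm38.p6, with settings not given in the sources used here. Of the deposited values, 4.63% were fractional, as when a read is divided between places, and they were rounded. The 1 unfinished row was left out. Gene lengths were the combined exon lengths of the same table.

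Groups came from the treatment label. Genes were filtered with filterByExpr, scaled by TMM, the trimmed mean of M values, and tested with the robust quasi-likelihood test of edgeR 4.0.16 (R 4.3.3), adjusted by Benjamini-Hochberg over 7667 genes with a threshold of 0.05. CPM values are TMM-scaled, and log2 CPM used a prior count of 0.5, as did the ratios. The biological coefficient of variation was 0.164. Alternatives were other scalings, filters and rounding, limma-voom (limma 3.58.1), DESeq2 1.42.0, the form of the identifiers, and leaving out hearts. The procedure was run on simulated counts for 7596 genes of this comparison, 200 of them changed by 2 on the log2 scale. It recovered 100% of these, and 4.31% of its 209 calls were false. Recovery of smaller changes, such as the log2 fold changes of 0.54 for Bmp2 and 0.93 for Mstn, was not tested.

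The members and lists were chosen with earlier results of these data known. All members are named. Of each of the 7 pathway lists are named the genes past the threshold, or else the 3 with the smallest p-value, and for each tested member the 2 genes with the most like pattern. Of the genes this rule takes, 2 are not reported here. The ratio of Grem1 to Bmp2 was planned but had no counts to rest on.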

Additional observations from a re-analysis of the deposited data

Results flagged for a closer look

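Of 30 values checked in the 4 control hearts (the tested members, the named pathway genes and 2 ratios), 2 had a heart far from the other 3 by Dixon's criterion, where chance alone gives 1.5. In control heart 3, Smurf1 had a log2 CPM of 6.86, and the other 3 control hearts lay at 7.06 to 7.07. The log2 ratio of Ltbp4 to Tgfb1 was 1.59 in control heart 2 and 2.05 to 2.11 in the other 3, and without that heart the difference between the groups was -0.33 (exact two-sided permutation p = 0.1, the smallest that 3 against 3 allows). That heart had the only control ratio inside the transferred range, so leaving it out set the groups apart. With any other heart left out, the exact two-sided permutation p was 0.333 to 0.6.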

How the results depend on the processing

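The count of members past the threshold was 0 in the 18 alternative fits, with 0 to 2 members under 0.05 before adjustment. Over all genes, against 18 (10 higher, 8 lower), column totals without a scaling factor gave 35 (26 higher, 9 lower), keeping every gene with at least 1 count gave 81 (66 higher, 15 lower) and DESeq2 gave 250 (190 higher, 60 lower). limma-voom, the identifier form as a covariate and the hearts with numbers alone gave 0 each, with 907, 973 and 1054 genes under 0.05 before adjustment. Leaving out a heart gave from 0 to 140 genes. It was 0 without control heart 1, 2 or 4 or transferred heart 2, with 831, 658, 773 and 706 genes under 0.05 before adjustment, then 1 without control heart 3 and 140 without transferred heart 3. Bmp2, Mstn and Ltbp4 kept their direction in 18 of 18 fits. Their p-value before adjustment was under 0.05 in 16 of these fits for Bmp2, 13 for Mstn and 0 for Ltbp4. When a heart was left out, the log2 fold change ranged from -0.091 to 0.031 for Tgfb1, from -0.22 to 0.028 for Tgfb2, from -0.50 to 0.051 for Bmp7 and from -0.0036 to 0.16 for Inhbb. For Ltbp4 it ranged from -0.32 to -0.13. The sign turned for Tgfb1 without control heart 2 (0.015), control heart 4 (0.031) or transferred heart 3 (0.012), for Tgfb2 without transferred heart 2, for Bmp7 without transferred heart 3, and for Inhbb without transferred heart 1 (-0.0036) or 3 (-0.0013) and in the hearts with numbers alone (-0.024). The difference in the log2 ratio of Tgfb1 to Tgfb2 ranged from -0.045 (without transferred heart 2) to 0.24 when a heart was left out, and that of Ltbp4 to Tgfb1 from -0.33 to -0.11. The cause was not tested. No paired analysis was possible because the groups share fewer than 2 numbers in the labels.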

Other observations

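A pair of BMP genes outside the rule is given here, chosen after their values were seen. Hjv, the BMP co-receptor hemojuvelin, had the highest level per exon length of the receptor list, 293 CPM per kb, and lay between 501 and 676 CPM in the 7 hearts (log2 fold change -0.15, edgeR adjusted p = 0.637). Bmp8a, a BMP ligand under the filter on low counts, had 1, 0, 0 and 1 counts in control hearts and 3, 6 and 2 counts in transferred hearts.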
